A study of Homo sapiens with 6 samples.

Results

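10 genes of the intermediate filament system were followed in U87 cells after depletion of the long noncoding RNA LINC00152. They are the filament genes VIM, NES, KRT7, KRT8, KRT18 and KRT80 and the plakin genes PPL, DSP, PLEC and DST, that is, 10 of the 27192 genes counted in each library. They were chosen by name, and the choice was made because KRT80 and PPL were higher and VIM was lower after the depletion in these same libraries. Their values are therefore given as a description with no test, and tests are reserved for genes outside the set.

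U87 is an established human glioblastoma cell line. Cells were transfected with siGL2, a control siRNA that the design calls nonspecific, or with siLINC00152, a combination of 2 siRNAs against LINC00152, and 3 libraries (A, B and C) were made for each group. Transfection was done 2 times, 24 h apart, with Lipofectamine RNAiMAX, and cells were collected 24 h after the last one. PolyA RNA was sequenced as paired reads of 75 bases from strand-directional libraries, and the values are raw counts of 41963120 to 46234763 per library. No label says that the libraries of a group came from separate cultures, so the spread between them may be technical and p-values measure only that spread.

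Intermediate filaments are ropes of coiled-coil proteins that give a cell its resistance to stretch. Vimentin is the main filament of mesenchymal cells and of glioma cells, nestin is a long partner that assembles with vimentin in progenitor cells, and keratins are the filaments of epithelia, where each filament pairs a type I with a type II keratin. Plakins are giant linkers that tie filaments to desmosomes, hemidesmosomes, actin and microtubules.

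Replicates differed by more than counting noise, and siGL2 A stood apart: the chi-square per degree of freedom over genes was 10.9 and 13.7 against siGL2 B and C, 2.91 between B and C, and 3.07 to 5.79 within siLINC00152. Without siGL2 A, 4 other keratins fell instead of 3, 2 hemidesmosome genes instead of 1, and 6 genes of the filament kinase, turnover and anchoring list rose instead of 4, while in the other lists described further on as many genes rose and fell as with it. The targeted RNA followed its labels. LINC00152 had 650, 608 and 776 counts in siGL2 A, B and C and 114, 112 and 109 in siLINC00152 A, B and C, a log2 fold change of -2.51 ± 0.09 (SE), with an adjusted p of 4.55e-15 by edgeR's quasi-likelihood test. Of its 75-base stretches, 20.7% also occur in MIR4435-2HG. In the test over all 14078 genes with enough counts, 64.3% of genes passed an adjusted p of 0.05, 32.2% higher and 32.2% lower in siLINC00152. Separately, 33.9% of these genes had every siLINC00152 library above every siGL2 library, and 33.8% had every one below. Of the members, 9 of 10 had enough counts, and their groups did not overlap for 5 genes that were higher (KRT7, KRT80, PPL, PLEC and DST) and 3 that were lower (VIM, NES and KRT8). KRT18 overlapped. The median log2 fold change of the 9 was 0.41, beside -0.00 over all genes tested. These shares are printed for scale only, since the same contrast chose the members.

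**Figure D1:**
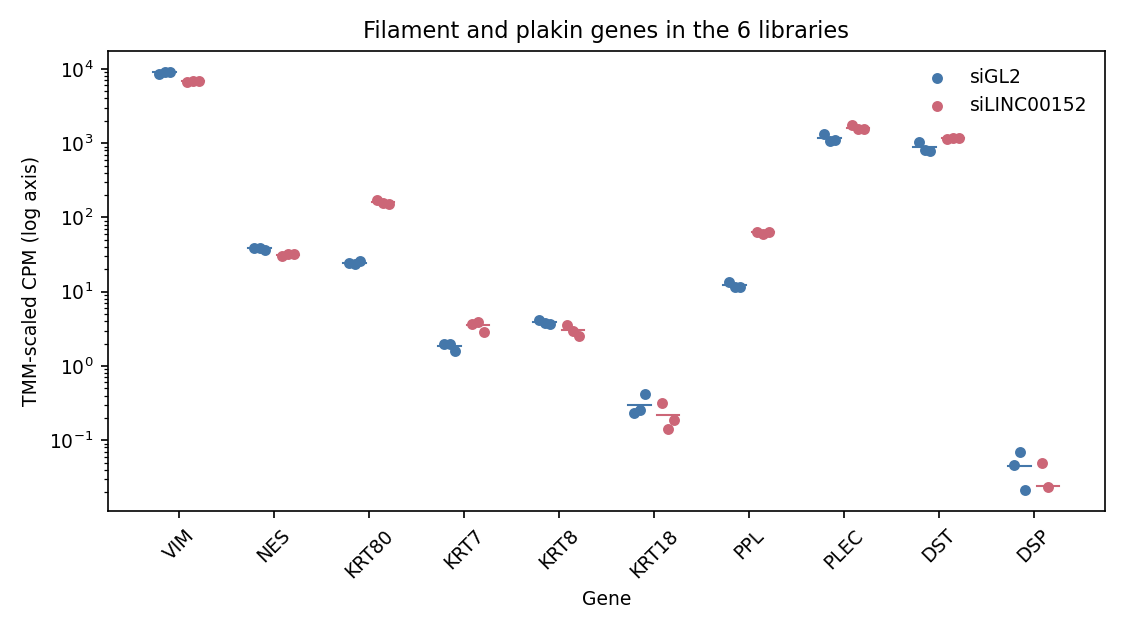
TMM-scaled CPM (log axis) of each member in the 3 siGL2 and 3 siLINC00152 libraries, with a line at each group's mean; a library with 0 counts (DSP in siLINC00152 C) has no point. KRT80 and PPL have the widest gaps between groups, 24.6 against 159.7 and 12.3 against 62.7, while VIM stands highest in every library.

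Reads are assigned by their letters, so the likeness of related members bears on the counts. Of the 1282 stretches of 75 bases in the KRT80 coding sequence (GENCODE release 29), 33 (2.57%) lie within 2 mismatches of KRT8, another type II keratin, and reads from those could be assigned to either gene. None lies within 2 mismatches of VIM, KRT7 or KRT18. The plakins PPL and DSP are far apart in DNA, with 46 of 75 bases the same at their closest coding stretch and no stretch within 2 mismatches. That stretch is shown because PPL was much higher while DSP was barely counted, and capitals mark the bases at which the pair differs.
PPL: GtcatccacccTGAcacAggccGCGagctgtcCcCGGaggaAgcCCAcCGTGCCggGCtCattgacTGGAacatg
DSP: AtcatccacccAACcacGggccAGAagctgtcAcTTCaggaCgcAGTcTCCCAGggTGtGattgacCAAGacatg
The coding sequences used encode 451 residues for KRT80, 510 for KRT8, 465 for VIM, 1755 for PPL and 2870 for DSP.

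VIM, which encodes vimentin, spans chr10:17228259-17237593 on the plus strand (GRCh38, GENCODE release 29). It had 374562, 394309 and 433766 counts in siGL2 A, B and C and 277187, 291486 and 294293 in siLINC00152 A, B and C. After scaling these were 8977 ± 299 CPM (counts scaled to library size with TMM factors, mean ± SD, n = 3) in siGL2 and 6866 ± 101 in siLINC00152. Every siLINC00152 library was below every siGL2 library, and the siLINC00152 level was 76.5% of the siGL2 level, a log2 fold change of -0.39 ± 0.04 (SE). In bulk RNA, fewer cells of a type and less RNA per cell cannot be told apart, here and for every gene that follows. VIM was still the most abundant member in all 6 libraries. VIM-AS1, an antisense gene that overlaps it, covers 24.4% of the exonic bases of VIM, and which strand was counted is unknown from the sources at hand. VIM-AS1 itself stood at 16.5 ± 1.03 CPM in siGL2 and 17.8 ± 1.11 in siLINC00152 and did not pass the test (log2 fold change 0.11 ± 0.07, adjusted p = 0.168).

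NES, the gene of nestin (chr1:156668763-156677397, minus strand), had 1696, 1674 and 1747 counts in siGL2 and 1236, 1371 and 1359 in siLINC00152. Its level was 38.3 ± 1.16 CPM in siGL2 and 31.5 ± 1.3 in siLINC00152, with no overlap of the groups and a log2 fold change of -0.28 ± 0.05. The proportion of NES to VIM therefore moved little: NES made up 0.383% ± 0.0224 of cytoplasmic filament transcripts in siGL2 and 0.402% ± 0.012 in siLINC00152, on the per-length scale defined further on.

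KRT80 (chr12:52168996-52192000, minus strand) encodes a type II keratin found in many epithelia. Its counts were 1050, 1026 and 1216 in siGL2 and 7089, 6588 and 6371 in siLINC00152. The level was 24.6 ± 1.03 CPM in siGL2 and 159.7 ± 11.8 in siLINC00152, 6.5-fold higher, a log2 fold change of 2.70 ± 0.06. The lowest siLINC00152 library, at 149.6 CPM, lay far above the highest siGL2 library, at 25.7 CPM. No other annotated gene covers its exons on the opposite strand, and none of its 75-base stretches is found exactly in another gene.

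KRT7 (chr12:52232520-52252186, plus strand), the type II keratin of simple and glandular epithelia, was a low-count gene with 85, 85 and 75 counts in siGL2 and 152, 166 and 124 in siLINC00152. It stood at 1.84 ± 0.218 CPM in siGL2 and 3.52 ± 0.542 in siLINC00152, 1.92-fold higher, a log2 fold change of 0.94 ± 0.14. The groups were apart, although the siLINC00152 libraries spread by 15.4% of their mean. KRT7-AS covers 7.67% of its exonic bases.

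KRT8 and KRT18 encode the type II and type I keratins that pair with each other in simple epithelia. They lie end to end on opposite strands of chromosome 12, KRT8 at chr12:52897187-52949954 (minus) and KRT18 at chr12:52948871-52952901 (plus), and their annotated exons overlap. KRT8 had 182, 164 and 173 counts in siGL2 and 147, 126 and 107 in siLINC00152, or 3.88 ± 0.279 and 3.03 ± 0.534 CPM, with a log2 fold change of -0.36 ± 0.12. Its gap was narrow: the lowest siGL2 library was at 3.66 CPM and the highest siLINC00152 library at 3.58. KRT18 had 10, 11 and 20 counts in siGL2 and 13, 6 and 8 in siLINC00152, with overlapping groups and a log2 fold change of -0.50 ± 0.38. No difference in KRT18 can be read from these values. The KRT18 pseudogene KRT18P55 was counted 8, 9 and 9 times in siGL2 and 19, 27 and 28 times in siLINC00152 (log2 fold change 1.59 ± 0.30, adjusted p = 0.000116), more than KRT18 itself in the siLINC00152 libraries. How the counting shared reads between the gene and its pseudogene is not known, so both values are uncertain. KRT8P41, the KRT8 copy counted, was at 0 in every library.

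VIM, NES and KRT8, the filament genes that were lower, each have an entry in the RefSeq promoter table (GRCh38.p14), and the 250 bases before their start sites are shown so that their letters can be compared. The windows are chr10:17227991-17228240 (plus) for VIM, chr1:156677408-156677657 (minus) for NES and chr12:52926470-52926719 (minus) for KRT8, the last of which lies inside the span of longer annotated KRT8 transcripts. Capitals mark the letters GGGCGG, the Sp1 motif, on either strand.
VIM: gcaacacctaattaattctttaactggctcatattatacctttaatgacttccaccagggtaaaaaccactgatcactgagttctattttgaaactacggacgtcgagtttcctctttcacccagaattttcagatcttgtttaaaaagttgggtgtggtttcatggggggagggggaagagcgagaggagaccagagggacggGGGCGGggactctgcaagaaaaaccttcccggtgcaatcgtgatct
NES: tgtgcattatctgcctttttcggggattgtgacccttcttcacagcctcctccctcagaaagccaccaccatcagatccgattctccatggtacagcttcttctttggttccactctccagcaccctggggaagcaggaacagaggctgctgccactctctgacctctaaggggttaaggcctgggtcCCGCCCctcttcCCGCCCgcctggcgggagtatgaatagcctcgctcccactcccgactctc
KRT8: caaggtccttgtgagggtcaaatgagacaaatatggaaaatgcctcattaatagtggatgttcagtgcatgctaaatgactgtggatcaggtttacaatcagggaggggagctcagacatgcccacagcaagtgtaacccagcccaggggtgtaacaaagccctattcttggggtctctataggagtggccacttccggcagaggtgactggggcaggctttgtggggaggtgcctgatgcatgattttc
The Sp1 letters occur 1 time in the VIM window, 2 times in NES and not in KRT8, and 42.6% of 35116 promoter windows of the same length hold them. The AP-1 letters TGANTCA (6.57% of windows), the TEAD letters GGAATG (11.9%), the CAGGTG box read by ZEB and SNAI factors (17.5%) and TATAAA (10.7%), searched on both strands, are in none of these 3 windows. GC content was 46% for VIM, 58% for NES and 50.4% for KRT8, beside a median of 58% over all windows. DSP and DST also have entries. KRT7, KRT18, KRT80, PPL and PLEC were not matched.

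PPL (chr16:4882507-4960741, minus strand) encodes periplakin, a plakin of the cornified envelope and of desmosomes that binds keratin and vimentin filaments through its tail. It had 596, 493 and 550 counts in siGL2 and 2616, 2528 and 2742 in siLINC00152. The level was 12.3 ± 1.28 CPM in siGL2 and 62.7 ± 2.27 in siLINC00152, 5.12-fold higher, a log2 fold change of 2.36 ± 0.07. The highest siGL2 library, A at 13.7 CPM, was well below the lowest siLINC00152 library, B at 60.2. No other gene shares its exons or its 75-base stretches.

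DSP (chr6:7541575-7586717, plus strand) encodes desmoplakin, the plakin without which desmosomes cannot hold keratin. It had 2, 3 and 1 counts in siGL2 and 2, 1 and 0 in siLINC00152, all at or under the 3 counts that a count of 0 allows, so no fold is given. The envelope partner of periplakin, envoplakin (EVPL), never exceeded 1 count in a library. PPL was thus higher in libraries where DSP and EVPL were barely counted, in either group.

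PLEC (chr8:143915147-143976734, minus strand) encodes plectin, which links vimentin and keratin to hemidesmosomes, actin and the nuclear envelope. It had 58219, 46414 and 51480 counts in siGL2 and 71274, 65893 and 66903 in siLINC00152, or 1168 ± 150.5 and 1625 ± 95.8 CPM, 1.39-fold higher, a log2 fold change of 0.48 ± 0.08. DST (chr6:56457987-56954628, minus strand) encodes dystonin, whose many isoforms include an epithelial one that anchors keratin at hemidesmosomes and others that bind microtubules or actin. It had 45431, 34646 and 37456 counts in siGL2 and 46945, 49722 and 50193 in siLINC00152, or 880.3 ± 144 and 1168 ± 22 CPM, 1.33-fold higher, a log2 fold change of 0.41 ± 0.10. For both genes siGL2 A was the highest control: it exceeded the mean of siGL2 B and C by 24.1% for PLEC and 31.4% for DST, and the log2 fold changes without it were 0.59 and 0.55. Counts per gene cannot say which of the 35 annotated DST transcripts changed.

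**Figure D2:**
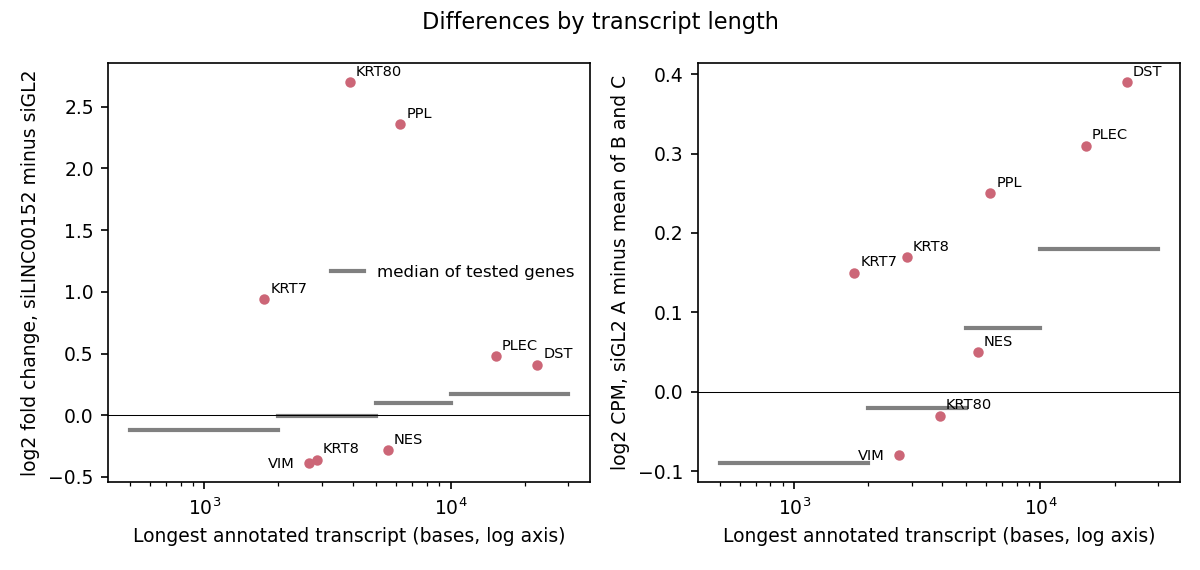
Each labelled point is a member (KRT18 and DSP are not drawn) at its longest annotated transcript in bases (log axis), and grey bars are medians over all tested genes of a length class. Left, the log2 fold change, siLINC00152 minus siGL2; right, log2 CPM of siGL2 A minus the mean of siGL2 B and C, where PLEC at 0.31 and DST at 0.39 stand above the median of 0.18 for transcripts of 10 kb and over.

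Over tested genes the median differences varied with transcript length, so length is given beside the values of the large plakins. Among the 592 tested genes whose longest transcript is 10 kb or more, the class of PLEC (15249 bases) and DST (22431 bases), the median log2 fold change was 0.17, and 84.5% were higher in siGL2 A than in the mean of B and C. In the 2451 genes under 2 kb the median was -0.12, and 25.7% were higher in siGL2 A. PPL, at 6238 bases, falls in a class with a median of 0.10. KRT80, at 3894 bases, and VIM, at 2666 bases, fall in one with a median of -0.01. In siGL2 A, PPL was 19.2% above the mean of siGL2 B and C, while KRT80 (-2.07%) and VIM (-5.65%) were below it. The part of length in the differences of PLEC, DST or any other member was not tested.

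Compared per kilobase of annotated exon, the siGL2 order was VIM (1740 CPM per kb), PLEC (68.8), DST (20.8), NES (6.88), KRT80 (5.64), PPL (1.59), KRT8 (0.564), KRT7 (0.449), KRT18 (0.094) and DSP. In siLINC00152, KRT80 (36.7) stood above DST (27.6), PPL (8.16) above NES (5.68), and KRT7 (0.86) above KRT8 (0.44), with VIM (1331) and PLEC (95.6) still at the top. The ranges of neighbours in these orders did not overlap. Dividing by the longest transcript instead kept the siGL2 order, but in siLINC00152 it put DST (52.1) above KRT80 (41).

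The filament pool as a whole stayed a vimentin pool. Over 66 genes of cytoplasmic filaments, VIM held 96.8% ± 0.0435 of CPM per kb in siGL2 and 94.2% ± 0.307 in siLINC00152 (SD, n = 3). All keratins together went from 2.0% ± 0.0359 to 4.68% ± 0.292 of it. With the longest transcript as the length these shares were 98.2% and 96.6% for VIM and 1.18% and 2.83% for the keratins. Within the keratins, KRT80 went from 15.7% ± 0.843 to 55.5% ± 1.27 of the keratin sum, so that it was the larger part of keratin RNA in every siLINC00152 library. The 26 type II keratin genes summed to 49.8 ± 0.186 CPM in siGL2 and 184 ± 13.1 in siLINC00152, but without KRT80 the other 25 summed to 25.2 ± 1.19 and 24.5 ± 1.29, with overlapping groups. The 28 type I genes summed to 52.6 ± 1.34 and 61.3 ± 1.15 CPM, with no overlap.  These sums contain the selected genes and are descriptive.

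4 members lie in the type II keratin cluster of chromosome 12, a stretch of 784 kb from KRT80 at one end to KRT18 at the other with 27 keratin genes. Of these, 13 had 0 counts in every library and 8 had enough counts for the test. KRT79, named after its values were seen, lies near KRT8 and had 702, 721 and 711 counts in siGL2 and 662, 626 and 663 in siLINC00152 (log2 fold change -0.04 ± 0.06, adjusted p = 0.615). The nearest tested genes of KRT80 other than KRT7 did not pass. LINC00592, whose span takes in KRT80, had a log2 fold change of 0.14 ± 0.40 (adjusted p = 0.775), ATG101 of -0.10 ± 0.05 (adjusted p = 0.0995) and NR4A1 of 0.55 ± 0.24 (adjusted p = 0.052). Around PPL on chromosome 16, 3 of the 4 nearest tested genes passed higher, where 32.2% of all tested genes did: UBN1, which ends just before PPL, went from 60.5 ± 0.942 to 105 ± 5.82 CPM (log2 fold change 0.79 ± 0.05, adjusted p = 1.75e-11), and NAGPA (0.39 ± 0.08) and GLYR1 (0.31 ± 0.05) rose as well. None of the 4 nearest tested genes of VIM passed, where 64.3% of all tested genes did, and no difference between these neighbourhoods was tested. The neighbours were looked at after the members' values were known.

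**Figure D3:**
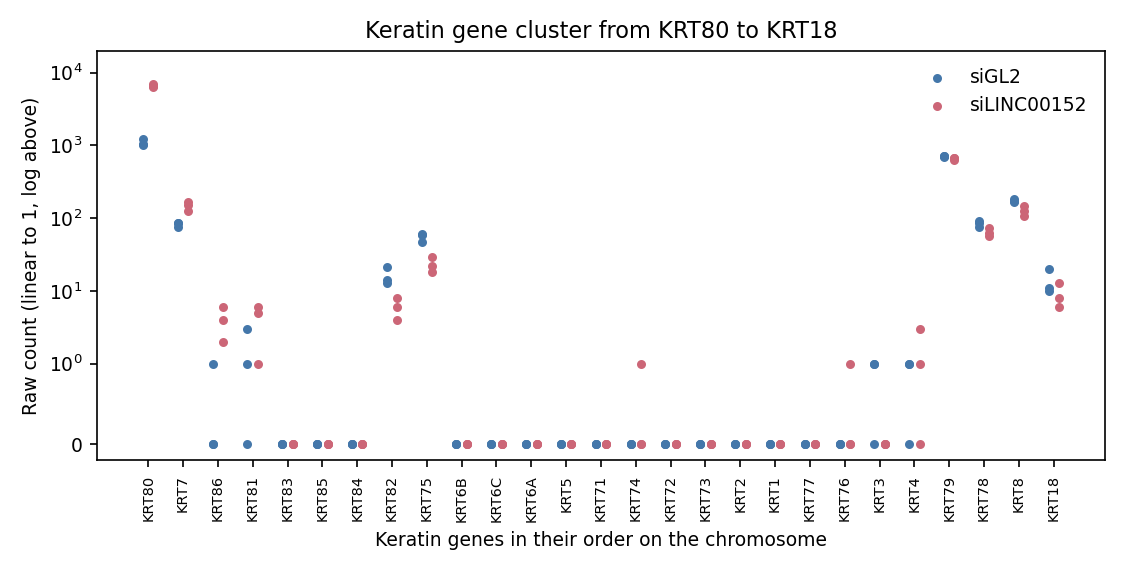
Raw counts (axis linear to 1 and logarithmic above) of the 27 keratin genes of the chromosome 12 cluster in their chromosomal order, 3 points per group. KRT80 at the left end is the gene whose groups lie far apart, from 1026 to 1216 counts in siGL2 and from 6371 to 7089 in siLINC00152; most genes between KRT75 and KRT79 are at 0 or a few counts.

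Keratins outside the set moved in both directions, as did tested genes at large. Of the 48 other keratin genes on the list 9 were tested. The list is not complete: the count tables hold 55 keratin genes, members included, and 14 of them were tested. The tallies that follow are those of the list only. Of these 3 rose, 3 fell and 3 did not pass (median log2 fold change -0.25), beside 32.2% of all tested genes in each direction. Among the 48, 22 had 0 counts in every library. KRT15, a type I keratin of basal epithelial cells, rose from 10.5 ± 0.405 to 24.2 ± 1.38 CPM (log2 fold change 1.21 ± 0.07, adjusted p = 1.95e-12). KRT16, a type I keratin induced in stressed epidermis, had 12, 10 and 4 counts in siGL2 and 48, 32 and 32 in siLINC00152 (2.18 ± 0.33, adjusted p = 7.66e-06), and 6.43% of its 75-base stretches also occur in KRT16P3. The hair keratin KRT34 rose at lower counts (1.06 ± 0.30, adjusted p = 0.00467). KRT10, the type I keratin of differentiated epidermis, fell from 40.4 ± 1.65 to 33.9 ± 0.947 CPM (-0.25 ± 0.05, adjusted p = 0.000306), and the hair follicle genes KRT75 (-1.17 ± 0.22) and KRT82 (-1.31 ± 0.38) fell at levels near 1 CPM or under. The 3 that did not pass were KRT78, KRT79 and KRT222.

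Among the other filament genes, lamins included, 8 of 14 were tested. Of these 3 rose, 1 fell and 4 did not pass (median -0.10), beside 32.2% of all tested genes in each direction. LMNA, which encodes the A-type lamins of the nuclear lamina, rose from 815 ± 10.1 to 1039 ± 58 CPM (0.35 ± 0.05, adjusted p = 1.08e-06), whereas LMNB1 (-0.09) and LMNB2 (-0.11) did not pass. SYNM, the gene of the filament linker synemin (0.88 ± 0.17, adjusted p = 0.000132), and NEFM, of the medium neurofilament (1.30 ± 0.30, adjusted p = 0.000735), rose at about 1 to 2 CPM and under 1 CPM. SYNC, the gene of syncoilin, fell (-0.57 ± 0.05, adjusted p = 6.53e-09). Genes on the opposite strand cover 27.7% of the exonic bases of SYNM, 38.9% of NEFM and 48.9% of SYNC, and without the strand setting their reads cannot be told apart. PRPH (-0.39) and BFSP1 (-0.13) did not pass. GFAP, the filament of astrocytes, had between 2 and 12 counts in every library.

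The remaining plakins split, where 32.2% of all tested genes passed in each direction. EPPK1, the gene of epiplakin, which bundles keratin, fell from 0.881 ± 0.00625 to 0.397 ± 0.133 CPM (-1.14 ± 0.25, adjusted p = 0.000457). MACF1, the microtubule and actin crosslinker closest in build to dystonin, rose from 664 ± 66.8 to 743 ± 12.5 CPM (0.16 ± 0.06, adjusted p = 0.0165), but the groups overlapped, siGL2 A being 17.9% above the mean of B and C, and the call was lost without siGL2 B, siGL2 C or siLINC00152 B, and with library size alone as the scaling.

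Desmosome genes were mostly too low to test. Of 14, 5 were tested. Of these 3 rose, none fell and 2 did not pass (median 0.19), beside 32.2% of all tested genes in each direction. PKP3, the gene of plakophilin 3, rose from 2.5 ± 0.0694 to 6.57 ± 0.266 CPM (1.39 ± 0.10, adjusted p = 1.39e-10). DSG2, of desmoglein 2 (0.27 ± 0.05), and PERP (0.19 ± 0.05) rose by less, and PKP4 (-0.07) and PKP1 (-0.15) did not pass. JUP, which encodes plakoglobin, reached at most 12 counts.

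The 6 hemidesmosome genes reported here were all tested. Of these 3 rose, 1 fell and 2 did not pass (median 0.00), beside 32.2% of all tested genes in each direction. ITGA6, the alpha 6 integrin, rose from 2.17 ± 0.226 to 10.7 ± 1.42 CPM, 4.92-fold (2.30 ± 0.11, adjusted p = 5.5e-13), while its hemidesmosomal partner ITGB4 stayed under 1 CPM and did not pass (-0.22 ± 0.24, adjusted p = 0.437). Among laminin genes, LAMB3 rose (0.49 ± 0.06) and LAMA3 fell (-0.87 ± 0.10). The tetraspanin CD151 rose (0.21 ± 0.04), and COL17A1 did not pass (-0.21 ± 0.10, adjusted p = 0.0782).

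Of 26 cornified envelope genes, the setting in which periplakin was first described, 8 were tested. Of these 4 rose, 2 fell and 2 did not pass (median 0.44), beside 32.2% of all tested genes in each direction. S100A10 rose from 429.7 ± 31.4 to 839.7 ± 52.3 CPM (0.97 ± 0.05, adjusted p = 8.44e-12) and S100A11 from 272 ± 15 to 406 ± 21.8 (0.58 ± 0.05, adjusted p = 2.81e-09); both encode calcium-binding proteins made by many cells. RPTN, of the epidermal protein repetin, had 3, 4 and 7 counts in siGL2 and 25, 27 and 32 in siLINC00152 (2.64 ± 0.34, adjusted p = 9.68e-07). KAZN, of the periplakin-binding protein kazrin, rose (0.33 ± 0.07, adjusted p = 0.000368), with 24.9% of its exonic bases covered on the opposite strand. CSTB (-0.27 ± 0.05) and ANXA1 (-0.22 ± 0.05) fell, and TGM1 (0.44 ± 0.23) and PI3 (0.44 ± 0.22) did not pass. IVL, of the early envelope precursor involucrin, had 6 to 12 counts in each library and was not tested.

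**Figure D4:**
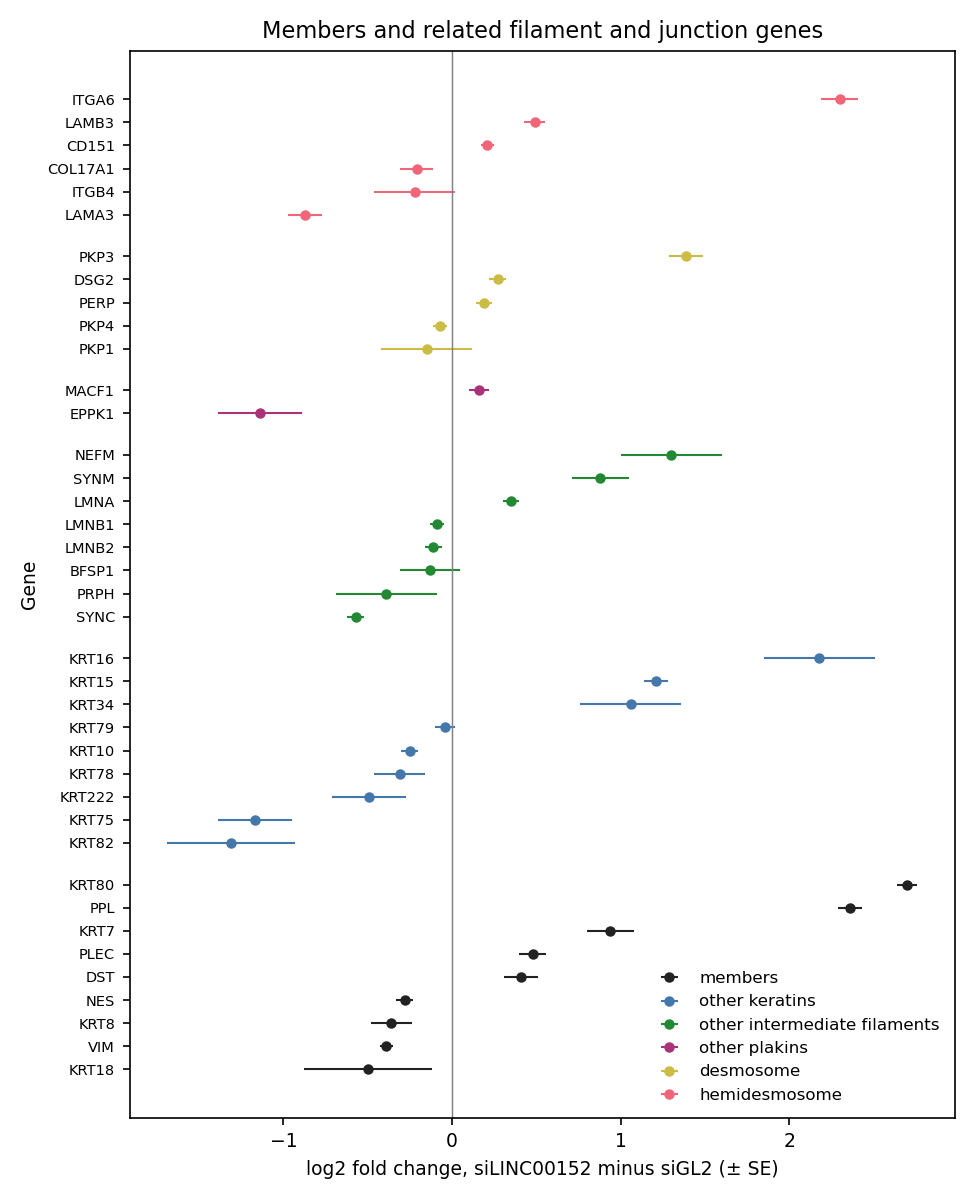
Log2 fold change, siLINC00152 minus siGL2, with its standard error as the bar, for the 9 members with enough counts (black) and every tested gene of 5 related lists. KRT80 (2.70) and PPL (2.36) are at the right end together with ITGA6 (2.30) and KRT16 (2.18), and every list except the desmosome genes holds genes that passed on both sides of 0.

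Of the genes that phosphorylate, anchor or degrade filaments, PAK1 had the smallest p. All 22 were tested, and 4 rose, 12 fell and 6 did not pass (median -0.16), beside 32.2% of all tested genes in each direction. PAK1 fell from 48.3 ± 0.739 to 26.6 ± 1.6 CPM (-0.86 ± 0.05, adjusted p = 2.24e-11) and PAK2 from 202 ± 9.37 to 138 ± 6.47 (-0.55 ± 0.05, adjusted p = 3.67e-09); both kinases phosphorylate vimentin. AURKB (-0.47 ± 0.05) and PLK1 (-0.37 ± 0.04), which are among the mitotic kinases of vimentin, fell as well. STUB1, a ubiquitin ligase, fell (-0.49 ± 0.05), with 42.4% of its exonic bases covered by JMJD8 on the opposite strand. YWHAZ, of a 14-3-3 protein that binds phosphorylated filaments, rose (0.38 ± 0.04, adjusted p = 1.96e-07).

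Regulators and markers of the epithelial and mesenchymal states did not move one way. Of 25, 16 were tested. Of these 7 rose, 5 fell and 4 did not pass (median 0.19), beside 32.2% of all tested genes in each direction. KLF4, a factor of epidermal differentiation, rose from 16.7 ± 0.488 to 55.8 ± 1.99 CPM (1.74 ± 0.05, adjusted p = 5.13e-16). ZEB1 (-0.45 ± 0.05), PRRX1 (-0.38 ± 0.05) and SNAI2 (-0.32 ± 0.05), factors of the mesenchymal state, fell, but ZEB2, of the same family as ZEB1, rose from 106 ± 6.65 to 195 ± 10.4 CPM (0.88 ± 0.05, adjusted p = 8.22e-12), and so did CDH2, the gene of N-cadherin (0.76 ± 0.04, adjusted p = 4.18e-12). CDH1, of E-cadherin, had 0 to 4 counts.

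Markers of 7 cell types were summed in each library. Of 8 epithelial markers, 6 were below 1 CPM in every library, KRT5 among them at 0, and the list summed to 2.54 to 2.88 CPM in siGL2 and 2.43 to 2.87 in siLINC00152, with EPCAM highest at 1.24 in both groups. The 8 mesenchymal markers, led by FN1, summed to 8585 to 9671 CPM in siGL2 and 10608 to 10995 in siLINC00152, but not every marker followed the sum. COL5A1 went from 12908, 11774 and 12533 counts to 58813, 53714 and 55681, while CD44 went from 115205, 116061 and 129959 to 86766, 93431 and 93692. The 7 astrocyte markers summed to 79.4 to 84.1 and 109 to 119.8 CPM, again with markers on both sides: SOX9 had 1613, 1545 and 1658 counts in siGL2 and 3143, 3499 and 3549 in siLINC00152, and SLC1A3 had 1976, 1909 and 2028 and then 1280, 1276 and 1496. GFAP was near 0 and AQP4 at 0. The endothelial sum was 8.68 to 9.6 CPM in siGL2 and 3.83 to 4.19 in siLINC00152, led by KDR (5.35 and 1.22). PECAM1 and TEK were lower along with KDR, but VWF went from 17, 9 and 19 counts to 31, 30 and 30. The macrophage or microglia sum was 354 to 358 CPM in siGL2 and 300.3 to 326 in siLINC00152, led by CD68, with AIF1 at 0. CD68 and CSF1R were lower. At few counts, CD14 (4, 9 and 2, then 15, 19 and 13) and ITGAM (4, 1 and 7, then 9, 10 and 10) were higher. Neuronal markers summed to 316 to 325 and 284 to 293 CPM, led by TUBB3, and oligodendrocyte lineage markers to at most 1.27 CPM, with OLIG1, MOG and SOX10 at 0. The summed epithelial markers overlapped between the groups, at a level near the floor for most of them. The part of any marker list, the epithelial one included, in the filament values was not tested.

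The genes whose profile over the 6 libraries lay nearest to KRT80, by Euclidean distance of centred log2 CPM among 9232 genes of at least 10 CPM, were TIMP3 (0.36), ADAM19 (0.42), PPL (0.51), RMND5A (0.53) and CPA4 (0.55). For PPL they were RMND5A (0.10), COL5A1 (0.18), ADAM19 (0.19), ACVR2B (0.25) and SLC2A3 (0.26). VIM had much closer neighbours, DLD (0.02), POLD3 (0.03), PNO1 (0.03), SCCPDH (0.04) and PNN (0.04), each with a log2 fold change between -0.40 and -0.37. With 2 groups of 3 libraries, these distances mostly reflect the size of the group difference.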

How the data were processed

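The authors deposited raw whole-number counts per gene symbol, 1 table for each of the 6 libraries. The submitters' processing notes name bcl2fastq, HISAT, HTSeq, DESeq and the build hg38, with no versions. The annotation, the counted strand and the handling of multiply mapped reads are, for this series, not given in the sources used here. The members, gene lists, markers and tests were chosen with earlier results of these data known.

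Genes were kept by filterByExpr (minimum count 10, total 15), which left 14078. Libraries were scaled by TMM (factors 0.975 to 1.03) and compared with edgeR 4.0.16 (R 4.3.3), by its robust two-sided quasi-likelihood test on all 6 libraries without covariates, with Benjamini-Hochberg adjustment over all tested genes. The test was checked on simulated data. Standard errors were computed as the size of the log2 fold change over the root of F. A count of 0 allows up to 3 counts, or 0.0649 to 0.0715 CPM, for counting error only.

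Beside the members, the text names every tested gene of a list with up to 8 tested, otherwise the 6 with the smallest p, and the 5 genes nearest in profile to KRT80, PPL and VIM. Positions, exon lengths and shared stretches come from GENCODE release 29, promoters from RefSeq (GRCh38.p14), which matched 5 of 10 members. 1 gene of the lists is not reported here and is left out of its list's count. Alternatives were other scalings, no filter, DESeq2 1.42.0, a replicate block, leaving out each library, and longest transcripts as lengths. Figures were drawn with matplotlib 3.10.9.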

Additional observations from a re-analysis of the deposited data

How the results depend on the processing

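For the 9 members with enough counts, no log2 fold change reversed direction under any of the 11 alternatives. DSP was not included. Ranges were 2.63 to 2.75 for KRT80, 2.29 to 2.45 for PPL, -0.45 to -0.37 for VIM, 0.41 to 0.59 for PLEC, 0.34 to 0.55 for DST and -0.87 to -0.17 for KRT18. With no filter on low counts, 11 of 26 other keratins on the list passed (6 higher, 5 lower) instead of 6 of 9. Over all genes 9299 of 20410 passed without the filter, and 9058 of 14078 with it. Of the other plakins, 1 of 2 passed with library size alone, and 1 to 2 passed when a library was left out. Whether the titles' letters A, B and C pair the libraries cannot be settled with so few libraries. Correlations of same-letter deviations were 0.157, -0.096 and 0.219, and those of different letters ran from -0.305 to 0.179. With the letter as a replicate block, 4571 genes were higher and 4584 lower, beside 4529 and 4529 without it. Library size alone moved the median of all genes to -0.07 and the split to 3755 higher and 5389 lower, and DESeq2 gave 4249 and 4187. Requiring 1 CPM in place of 10 kept 2 of the 5 genes nearest to KRT80 and 3 of 5 for PPL. Low counts limit what can be said of DSP and KRT18.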
